A study of Mus musculus with 4 samples.

Results

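The genes described here carry the symbols of mitochondrial ribosomal proteins, Mrpl for the large and Mrps for the small subunit. They were taken by symbol, as Mrpl or Mrps followed by a number, although the products of Mrps18a, Mrps30 and Mrps36 have another place than the symbol says. This gave 76 of the 23990 gene symbols in the tables, 47 Mrpl and 29 Mrps genes with 94 transcripts on 17 chromosomes. Effector CD4 cells (CD44+) of wild type C57BL/6 mice (C57BL/6J in the Methods) immunized with MOG were sorted at the onset of EAE, a mouse model of multiple sclerosis, either from spinal cord (called CNS) or from draining lymph nodes that had been pooled (called dLN). Each tissue had 2 libraries. The study asked how CD4 cells that had entered the CNS differ from effector CD4 cells in the periphery. Its Methods state a PMA and ionomycin stimulation after the sort, whereas the sample labels name none and call the cells freshly sorted. Ages are not given in the sources used here, nor do the labels say whether the libraries of a tissue came from separate animals, so p-values measure only the spread between these libraries, which may be technical.

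Mitochondria keep a ribosome of their own, made of RNA encoded in mitochondrial DNA and of proteins encoded in the nucleus, translated in the cytosol and imported. It translates the few mitochondrial messages, which encode core subunits of the respiratory chain and the ATP synthase. Some of its proteins descend from those of the bacterial ribosome and others were gained later. Activated T cells are known to build up mitochondria and their translation machinery as they grow and divide.

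Values are FPKM, the fragments of a transcript per kilobase scaled to what was mapped in the library, so levels of genes of different length can be set side by side. The length used was shorter than the transcript, by an estimated 150 and 200 bases in the CNS libraries and 190 and 180 in the dLN libraries, which raises the FPKM of short transcripts. With values per full transcript length, an alternative chosen after seeing the data, 14 members were higher and 40 lower. Of all 10634 genes tested 8021 passed the same test, and 50.9% of these were higher. The median log2 ratio was -0.38 over the members and 0.05 over all genes tested. The steps between low FPKM values gave an estimated depth of 20.9 M and 21.8 M fragments in CNS replicates 1 and 2, and of 18.6 M and 22.1 M fragments in dLN replicates 1 and 2. At these depths a member had between 94 and 3059 fragments in a library, with a median of 530, so that counting error alone is 10.3% of the value at the lowest and 4.34% at the median. Log2 ratios are CNS over dLN on log2(FPKM + 1), a scale that understates the change of low genes. The tissues are compared across 2 tables, with each library scaled by its own total.

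All 76 genes were expressed in both tissues, their means reaching 1 FPKM or more in each. Their mean levels ran from 2.89 to 225 FPKM in CNS, with a median of 23.3, and from 6.99 to 171 FPKM in dLN, with a median of 33.9. Summed over the 76 genes, the level was 2542 and 2563 FPKM in the CNS libraries and 3172 and 3061 FPKM in the dLN libraries, 1.22 times as much in dLN. Bulk RNA cannot tell fewer cells of a type from less RNA per cell. Replicates lay close together: 65 genes agreed within 1.2-fold between the CNS libraries and 73 between the dLN libraries. Mrpl14 was the 1 member that differed by more than 1.5-fold between the CNS libraries, and between the dLN libraries all 76 lay within that factor.

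**Figure D1:**
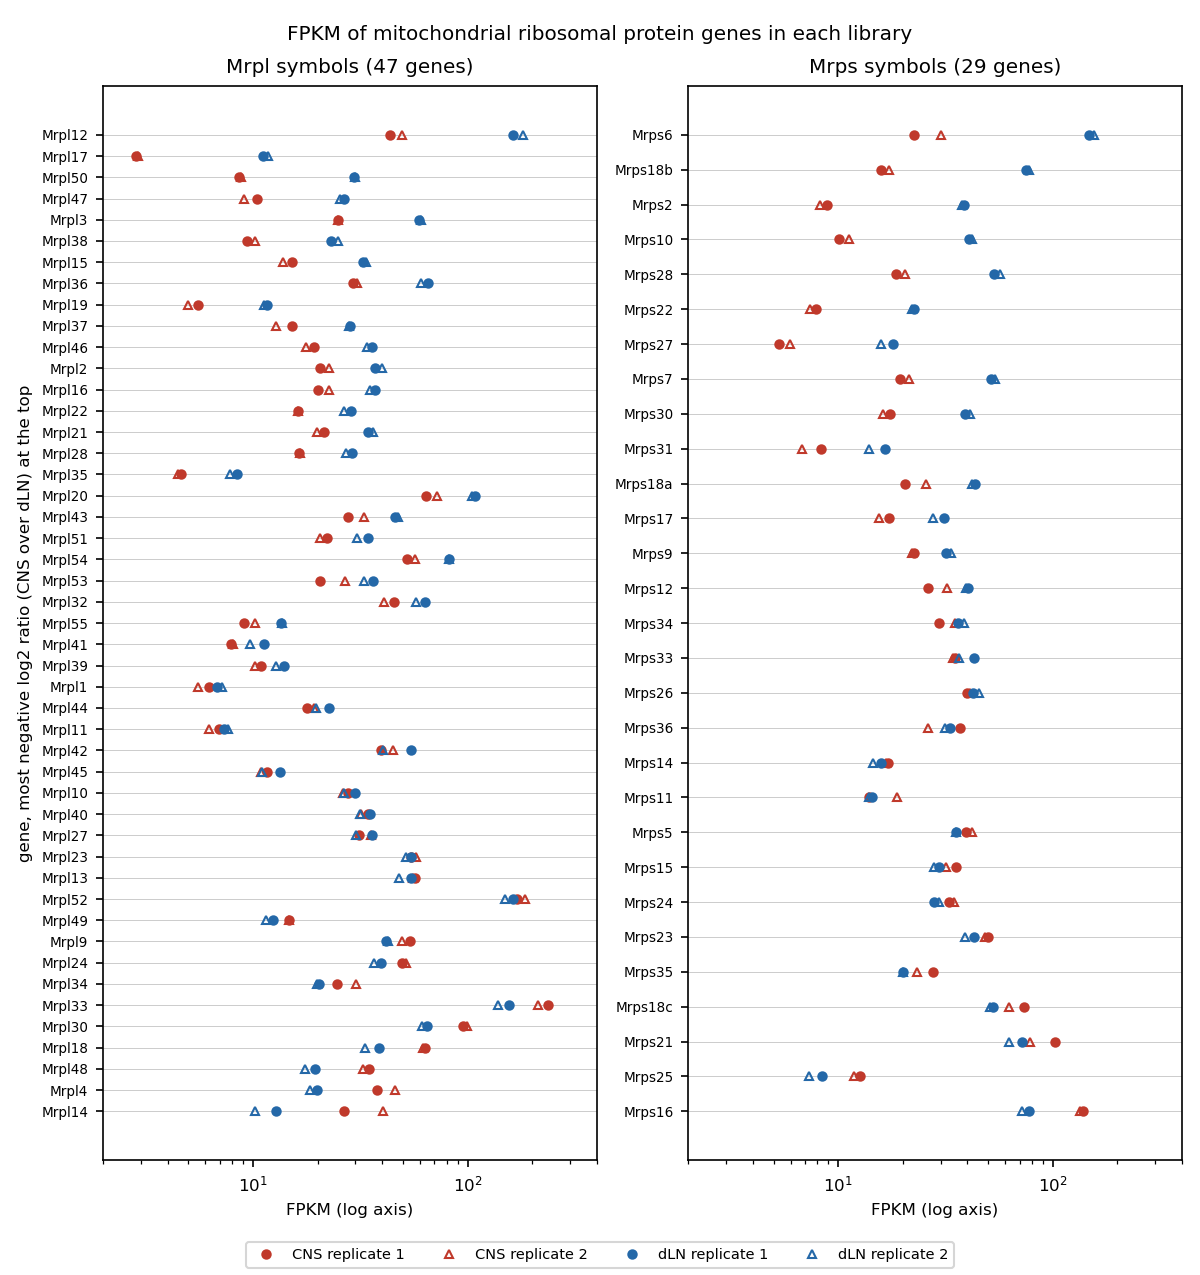
FPKM (log axis) of each of the 76 genes in the 4 libraries, Mrpl genes on the left and Mrps genes on the right, ordered by log2 ratio; circles are replicate 1, triangles replicate 2, red CNS and blue dLN. The red and blue points are far apart for genes at the top, such as Mrpl12 and Mrps6, cross further down and are reversed at the bottom, at Mrpl14 and Mrps16.

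More of the genes were lower than higher in CNS. In limma with Benjamini-Hochberg adjustment over 10634 genes, 40 of the 76 were lower in CNS at an adjusted p under 0.05, against 37.2% of all genes tested, and 14 were higher, against 37.8%. Together 54 of 76 were called, or 71.1%, where 74.9% of all genes were, a share near the background, while 52.6% of the members were lower and 18.4% higher. The CNS pair was entirely below the dLN pair for 46 genes (43.7% of all genes tested) and above them for 23 (45.7%), and the tissues overlapped for 7. On the log2(FPKM + 1) scale, 17 genes were called and lower by 1 unit or more (18.2% of all genes), and 2 were called and higher by as much (21.0%). Mrpl19, Mrpl37 and Mrps31, called lower too, fell short on that scale. Their plain FPKM means were 2.17, 2.02 and 2.01 times as high in dLN. The median log2 ratio was -0.40, beside 0.05 over all genes tested, and the log2 ratios had an SD of 0.81 across the members. Rescaling the libraries to the same sum moved the median of all genes to -0.13 and that of the members to -0.58, with 8 members higher and 46 lower beside 32.2% and 42.5% of all genes. Rescaling to the same upper quartile moved them to 0.16 and -0.27, with 22 members higher and 37 lower beside 42.0% and 33.6% of all genes. With 2 libraries a tissue, the smallest p of an exact permutation test is 0.333 (two-sided), so the calls rest on the spread that limma shares across genes. Without dLN replicate 1, 9 members were called higher and 34 lower, beside 33.99% and 31.2% of all genes, and without dLN replicate 2, 8 and 36, beside 30.3% and 31.8%.

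Among small-subunit proteins that have a bacterial counterpart, Mrps6 had the lowest log2 ratio of all members. Mrps6 (Entrez gene 121022, mm10 chromosome 16, 92058336 to 92112227) stood at 22.7 and 30.0 FPKM in CNS, and at 148 and 156 FPKM in dLN. The groups were far apart, with means of 26.3 ± 5.18 FPKM (SD, n = 2) for CNS and 152 ± 6.02 FPKM (SD, n = 2) in dLN, 5.76 times as much in dLN. Its log2 ratio was -2.50 with a standard error of 0.15 (adjusted p = 0.000179 in limma). In GENCODE M21 Mrps6 shares 305 exon bases with Gm49711 and 159 with Slc5a3, both on the same strand, and fragments there cannot be told apart. Mrps2 was at 8.90 and 8.20 FPKM in CNS and at 38.6 and 37.9 FPKM in dLN (log2 ratio -2.04). Mrps10, a protein of the head of the small subunit, was at 10.05 and 11.3 FPKM in CNS and at 40.5 and 41.9 FPKM in dLN (log2 ratio -1.86). Mrps28 followed with 18.6 and 20.4 FPKM against 53.2 and 56.7 FPKM (log2 ratio -1.45). Each of these genes was lower in both CNS libraries than in either dLN library.

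The small subunit also held genes with the opposite direction. Mrps16, among the most abundant members, was at 138 and 134 FPKM in CNS and at 77.4 and 72.0 FPKM in dLN. The tissues did not overlap, and its log2 ratio was 0.86 with a standard error of 0.08 (adjusted p = 0.000615 in limma). Mrps25 was at 12.6 and 11.8 FPKM in CNS and at 8.40 and 7.28 FPKM in dLN (log2 ratio 0.58), and without CNS replicate 1 a log2 ratio of 0.54 missed the threshold (limma adjusted p = 0.0528). In GENCODE M21, 4590 of its 6576 exon bases overlap Nr2c2 on the opposite strand, and whether the authors' counting used strand is not given in the sources used here. Of the 29 Mrps genes, 14 were lower and 4 higher in CNS, or 48.3% and 13.8%, beside 37.2% and 37.8% of all genes tested. Their median log2 ratio was -0.21, or -0.33 to -0.25 with each library left out in turn. With the same upper quartile per library 13 were lower and 10 higher (median -0.08), with equal sums 17 and 2 (-0.40), and with a correction for transcript length described further on 17 and 2 (-0.56).

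In the large subunit, Mrpl12 forms the stalk that binds translation factors. Mrpl12 (Entrez gene 56282, chromosome 11, 120484669 to 120488754) was at 43.6 and 49.3 FPKM in CNS and at 162 and 180 FPKM in dLN. It had the highest mean of the members in dLN and not in CNS, although Mrpl52 was slightly above it in dLN replicate 1 (162.5 against 162.2 FPKM). The log2 ratio was -1.86 with a standard error of 0.10 (adjusted p = 0.000159 in limma). Mrpl17 was at 2.86 and 2.92 FPKM in CNS and at 11.1 and 11.7 FPKM in dLN (log2 ratio -1.67), and had the lowest CNS mean of all members. Mrpl50, a protein without a bacterial counterpart, was at 8.57 and 8.83 FPKM in CNS and at 29.7 and 29.9 FPKM in dLN (log2 ratio -1.67). For these 3 genes the gap between tissues was many times the gap between replicates.

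Mrpl14, a protein of the face that joins the small subunit, had the highest log2 ratio of all members. Mrpl14 (Entrez gene 68463, chromosome 17, 45686372 to 45698495) was at 26.5 and 40.3 FPKM in CNS and at 12.9 and 10.3 FPKM in dLN. The 2 CNS libraries differed more from each other than those of most members, yet both were above dLN, with means of 33.4 ± 9.72 FPKM (SD, n = 2) and 11.6 ± 1.84 FPKM (SD, n = 2) (log2 ratio 1.43, standard error 0.23, limma adjusted p = 0.00349). Mrpl4 was at 38.0 and 45.8 FPKM in CNS and at 19.8 and 18.4 FPKM in dLN (log2 ratio 1.09). Mrpl48 was at 34.8 and 32.5 FPKM in CNS against 19.4 and 17.4 FPKM in dLN (log2 ratio 0.84). These levels did not overlap between tissues for either gene. Mrpl18, whose bacterial relative binds a ribosomal RNA, was at 63.1 and 62.3 FPKM against 38.5 and 33.3 FPKM (log2 ratio 0.79). Mrpl30 was at 95.3 and 99.8 FPKM in CNS and at 64.8 and 61.1 FPKM in dLN (log2 ratio 0.62), and lost its call with the length correction (0.17). Of the 47 Mrpl genes, 26 were lower and 10 higher, or 55.3% and 21.3%, beside 37.2% and 37.8% of all genes tested. Their median log2 ratio was -0.45, or -0.46 to -0.35 with each library left out in turn. With the same upper quartile per library 24 were lower and 12 higher (median -0.33). With equal sums 29 were lower and 6 higher (median -0.63), and with the length correction 32 and 4 (-0.66).

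The promoters of Mrpl12 and Mrpl14, with one of the largest falls and the largest rise among the members, each hold 1 match to the NRF1 motif, in capitals. Both windows are on the plus strand of GRCm38.p6 (RefSeq), from 250 bases before to 50 after the start of the gene in RefSeq, at chr11:120484387-120484686 for Mrpl12 and chr17:45686099-45686398 for Mrpl14. These RefSeq starts lie 32 bases (Mrpl12) and 23 bases (Mrpl14) upstream of the gene starts given above.
Mrpl12: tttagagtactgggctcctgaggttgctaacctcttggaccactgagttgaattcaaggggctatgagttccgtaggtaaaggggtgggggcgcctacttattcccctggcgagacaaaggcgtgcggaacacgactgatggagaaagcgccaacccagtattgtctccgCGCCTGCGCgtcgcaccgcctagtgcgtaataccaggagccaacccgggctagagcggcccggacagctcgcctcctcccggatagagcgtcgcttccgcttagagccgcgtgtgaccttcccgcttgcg
Mrpl14: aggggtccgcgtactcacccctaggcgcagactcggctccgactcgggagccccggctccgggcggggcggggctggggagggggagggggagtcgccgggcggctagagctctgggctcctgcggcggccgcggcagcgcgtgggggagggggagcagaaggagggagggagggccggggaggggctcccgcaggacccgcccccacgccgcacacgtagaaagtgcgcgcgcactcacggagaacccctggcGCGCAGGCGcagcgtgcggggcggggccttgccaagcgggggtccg
With the start base as 0, the match spans -80 to -72 in Mrpl12, as the reverse complement, and 4 to 12 in Mrpl14. A match is a description of the letters and not of binding.

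The most abundant members did not share a direction. Mrpl33 was at 236 and 214 FPKM in CNS and at 155 and 138 FPKM in dLN (log2 ratio 0.62, limma adjusted p = 0.00387), a call that the length correction ended (0.03). Mrpl52 was at 170 and 185 FPKM in CNS and at 162 and 149 FPKM in dLN. The log2 ratio of Mrpl52, 0.19, did not pass the test (limma adjusted p = 0.113). It was called higher with the same upper quartile (0.32, limma adjusted p = 0.0173) and lower with the length correction (-0.42, limma adjusted p = 0.0118). Mrpl35, Mrpl1 and Mrpl11 had the lowest means over the 4 libraries beside Mrpl17, at 6.35, 6.44 and 7.05 FPKM. Of these, Mrpl35 was lower in CNS (log2 ratio -0.72), while Mrpl1 (-0.22) and Mrpl11 (-0.16), which form or sit by the stalks of the large subunit, were not called. Both were called lower with equal library sums (-0.39 and -0.34), as was Mrpl1 with the length correction (-0.35). The order of levels was partly kept between tissues, with a Spearman rho of 0.69 between the CNS and dLN means across the 76 genes, beside 0.74 across all genes tested. Genes are not independent replicates and share their libraries.

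The summed FPKM of Mrpl genes was 1.81 and 1.92 times that of Mrps genes in the CNS libraries, and 1.64 and 1.58 times in the dLN libraries. Of the 46 members with a bacterial counterpart, 24 (52.2%) were lower and 10 (21.7%) higher, with a median log2 ratio of -0.45. Of the 30 without, 16 (53.3%) were lower and 4 (13.3%) higher (median -0.33). Over all genes tested, 37.2% were lower and 37.8% higher. Dropping 1 library at a time gave medians of -0.46 to -0.34 for the first class and -0.41 to -0.25 for the second. Most of these fits called fewer members of either class higher. With the length correction 27 and 4 of the first class (median -0.67) and 22 and 2 of the second (-0.59) were lower and higher, and with the same upper quartile 23 and 16 (-0.32) and 14 and 6 (-0.21). The classes were assigned by hand, and differences between them were not tested.

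The 3 Mrps18 genes are paralogs, of which Mrps18c was classed with a bacterial counterpart and Mrps18a and Mrps18b without. Mrps18b (Entrez gene 66973, chromosome 17, 35910385 to 35916369) was at 15.8 and 17.2 FPKM in CNS and at 75.1 and 77.8 FPKM in dLN, which gave a log2 ratio of -2.14 with a standard error of 0.09 (adjusted p = 9.15e-05 in limma), the smallest p among the members. Mrps18a, whose product sits in the large subunit despite its name, was at 20.4 and 25.5 FPKM in CNS and at 43.6 and 42.1 FPKM in dLN (log2 ratio -0.88, limma adjusted p = 0.00258). Mrps18c was at 73.6 and 62.9 FPKM in CNS and at 52.9 and 51.2 FPKM in dLN (log2 ratio 0.38, limma adjusted p = 0.0242). The tissues did not overlap for any of the paralogs, and the most abundant of them was Mrps18b in dLN and Mrps18c in CNS. Differences between the paralogs were not tested. The call of Mrps18c was lost with library sums made equal, with values per full transcript length and without CNS replicate 1, dLN replicate 1 or dLN replicate 2 (log2 ratios 0.18, 0.42, 0.27, 0.40 and 0.36). Its direction turned with the length correction, to -0.18. The promoter windows below, from the same RefSeq build, are shown because the paralogs differ in the motifs they hold. For Mrps18b the RefSeq start is 71 bases upstream of the gene end coordinate given above, so its window lies beyond that coordinate. They lie at chr17:46110754-46111053 (plus strand) for Mrps18a, chr17:35916391-35916690 (minus strand) for Mrps18b and chr5:100798509-100798808 (plus strand) for Mrps18c, and capitals mark every match to the 5 motifs searched.
Mrps18a: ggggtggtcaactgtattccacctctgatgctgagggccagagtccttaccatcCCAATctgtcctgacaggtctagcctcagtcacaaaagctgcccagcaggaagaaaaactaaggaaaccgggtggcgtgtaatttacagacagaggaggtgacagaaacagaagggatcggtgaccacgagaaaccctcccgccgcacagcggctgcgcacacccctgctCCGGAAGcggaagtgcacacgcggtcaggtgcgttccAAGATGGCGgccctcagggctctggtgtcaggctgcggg
Mrps18b: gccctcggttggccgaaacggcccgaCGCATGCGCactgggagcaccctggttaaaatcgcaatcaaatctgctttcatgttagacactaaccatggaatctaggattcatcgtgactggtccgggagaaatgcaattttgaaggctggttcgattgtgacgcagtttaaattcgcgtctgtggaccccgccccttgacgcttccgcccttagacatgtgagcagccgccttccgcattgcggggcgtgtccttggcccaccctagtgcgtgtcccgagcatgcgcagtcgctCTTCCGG
Mrps18c: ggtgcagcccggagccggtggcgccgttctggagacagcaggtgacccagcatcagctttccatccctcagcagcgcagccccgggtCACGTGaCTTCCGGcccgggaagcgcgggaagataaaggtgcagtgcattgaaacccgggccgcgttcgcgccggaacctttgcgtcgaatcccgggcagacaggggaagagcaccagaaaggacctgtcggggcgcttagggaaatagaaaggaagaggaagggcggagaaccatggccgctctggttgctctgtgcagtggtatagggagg
Mrps18a holds a CCAAT box, an ETS and a YY1 match, Mrps18b an NRF1 and an ETS match, and Mrps18c an E-box and an ETS match.

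Other members have products whose place differs from the name. Mrps30, a protein of the large subunit, was at 17.5 and 16.2 FPKM in CNS and at 39.2 and 41.1 FPKM in dLN (log2 ratio -1.20, limma adjusted p = 0.000298). Mrps36, which belongs to the 2-oxoglutarate dehydrogenase complex, was at 36.9 and 26.2 FPKM in CNS and at 33.1 and 31.5 FPKM in dLN. Its libraries overlapped (log2 ratio -0.05, limma adjusted p = 0.805), and without CNS replicate 2 the log2 ratio was 0.19. The annotation holds 3 pseudogenes named after it, whose reads could be assigned to it.

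A head-to-head neighbour, a gene on the other strand whose start lies within 1000 bases upstream or overlaps by at most 100 bases, was found for 25 of the 76 members (32.9%) and for 14.7% of the 10075 tested genes with a strand. Mrpl46 and Mrps11 are such a pair of members, with starts 42 bases apart on chromosome 7. Mrpl46 was at 19.3 and 17.7 FPKM in CNS and at 36.0 and 34.04 FPKM in dLN (log2 ratio -0.89, limma adjusted p = 0.000826). Mrps11 was at 13.9 and 18.7 FPKM in CNS and at 14.4 and 13.9 FPKM in dLN, with overlapping libraries (log2 ratio 0.17, limma adjusted p = 0.351). The annotated exons of the pair share 173 bases. One window holds both starts, at chr7:78782881-78783180 on the plus strand of GRCm38.p6 (RefSeq).
Mrps11: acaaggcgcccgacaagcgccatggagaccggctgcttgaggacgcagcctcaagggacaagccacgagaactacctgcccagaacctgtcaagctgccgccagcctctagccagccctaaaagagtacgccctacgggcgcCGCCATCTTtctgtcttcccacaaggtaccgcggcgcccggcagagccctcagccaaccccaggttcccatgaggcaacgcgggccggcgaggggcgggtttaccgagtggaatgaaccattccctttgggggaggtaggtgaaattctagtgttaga
Its 1 match, in capitals, is the reverse complement of the YY1 motif and spans -108 to -100 from the start of Mrps11. Both genes of the pair were chosen after their values were seen. Where both genes of a head-to-head pair were tested, 12 members were lower in CNS, and their neighbours were lower in 6 cases, higher in 3 and not called in 3, where 37.2% of all genes were lower. Beside the 5 higher members of such pairs, 2 neighbours were higher, 1 lower and 2 not called. Mrpl47 (log2 ratio -1.32) and its neighbour Ndufb5, a respiratory chain subunit gene (0.72), are among the 4 pairs with opposite calls, as are Mrpl18 (0.79) and Tcp1, a subunit gene of a cytosolic chaperone (-0.99). These genes too were singled out after their values were seen. Exon bases of another annotated gene overlapped 32 members, 23 of them with a protein-coding gene, and fragments there cannot be assigned with certainty.

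**Figure D2:**
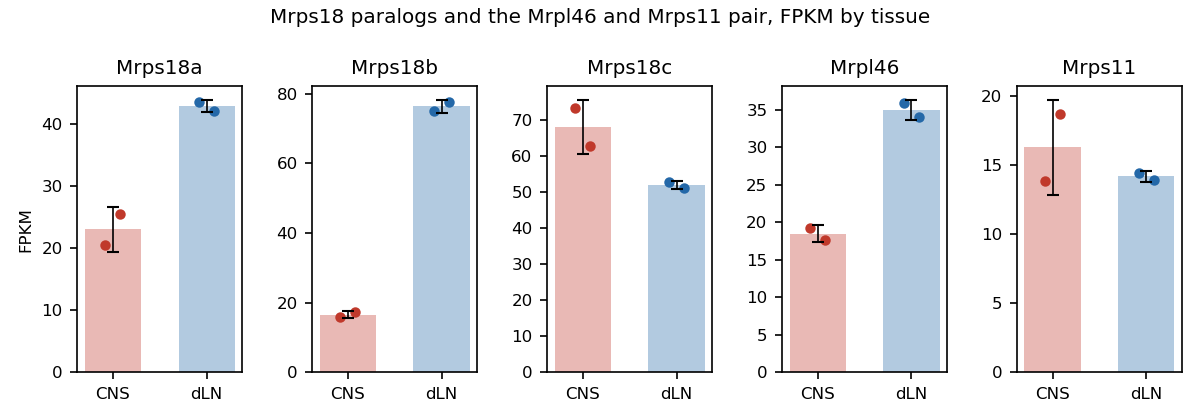
FPKM of the Mrps18 paralogs and of Mrpl46 and Mrps11 in CNS (red) and dLN (blue); bars are means, points the 2 libraries and error bars SD, with each vertical axis starting at 0. The mean of Mrps18b is 76.4 FPKM in dLN and 16.5 in CNS, that of Mrps18c is higher in CNS, and the points of Mrps11 overlap between tissues while those of Mrpl46 do not.

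RefSeq promoters matched 67 of the 76 members, without Mrpl4, Mrpl13, Mrpl15, Mrpl19, Mrpl38, Mrpl54, Mrps28, Mrps34 and Mrps35. Motifs were searched on both strands as GCGCANGCG (NRF1), CCGGAAG (ETS, the motif of GABP), AAGATGGCG (YY1), CACGTG (E-box, bound by Myc) and CCAAT, and NRF1 matches on opposite strands can overlap when shifted by 1 base. The ETS motif was found in 24 member promoters (35.8%) and in 21.4% of the 8548 promoters of tested genes, NRF1 in 15 (22.4% against 15.3%) and YY1 in 8 (11.9% against 3.77%). The E-box was found in 5 (7.46% against 10.6%) and CCAAT in 27 (40.3% against 39.2%). Among the 35 members with a promoter that were lower in CNS, ETS matches were in 12, NRF1 in 7, YY1 in 5, the E-box in 4 and CCAAT in 18. Over all lower genes the shares were 24.9%, 18.2%, 4.70%, 12.8% and 37.7%, against 34.3%, 20.0%, 14.3%, 11.4% and 51.4% in these members. Among the 13 higher members, the counts in the same order were 7, 3, 0, 1 and 4, or 53.8%, 23.1%, 0%, 7.69% and 30.8%. Over all higher genes the shares were 16.9%, 11.9%, 2.69%, 8.39% and 38.8%. With 13 members, a single gene moves a share by 7.69%. Median GC content was 58.0% in the members and 61.0% over all these promoters.

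Of the 7 mitoribosome proteins with other names, 3 (42.9%) were lower in CNS and 1 (14.3%) higher, beside 37.2% and 37.8% of all genes tested. With the same upper quartile 3 were lower and 2 higher, beside 33.6% and 42.0% of all genes. Ptcd3, a small-subunit protein, was at 9.27 and 7.94 FPKM in CNS and at 39.9 and 42.4 FPKM in dLN (log2 ratio -2.14). Gadd45gip1 (-1.03) and Chchd1 (-0.95) were lower as well. Ict1, a peptidyl-tRNA hydrolase built into the large subunit, was at 57.9 and 53.1 FPKM in CNS and at 24.0 and 21.2 FPKM in dLN (log2 ratio 1.26). Dap3 (0.08), Aurkaip1 (0.12) and Mrp63 (-0.15) were not called. Both directions were thus seen under these names as well.

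In each list of genes that serve the mitoribosome, more were called lower than higher, where 37.2% of all genes tested were lower and 37.8% higher. Of 23 tested genes of assembly and rRNA modification, 13 were lower and 2 higher (median log2 ratio -0.44). Dhx30, the most abundant, had a log2 ratio of -1.64 (-2.84 to -1.51 across 18 fits). The genes ran from Rnmtl1, an rRNA methyltransferase (-2.51), to Trmt2b (1.69). With each library left out in turn 8 to 10 of them were lower (medians -0.46 to -0.33), and with the same upper quartile 11 were lower and 4 higher. Of 13 translation factors, 6 were lower and 3 higher (2 higher with equal sums), among them the recycling factor Mrrf (-1.57), Guf1 (0.66) and the elongation factor Tufm (-0.77). The lower ones were 46.2% of this list, near the share over all genes. Its median was -0.07, or 0.03 with the same upper quartile and -0.16 to -0.06 with each library left out in turn. Of 17 tRNA synthetase genes and 2 genes of the amidotransferase that completes glutaminyl-tRNA (Qrsl1 and Gatc), 10 were lower and 3 higher (median -0.44), or 8 to 11 and 1 to 3 with each library left out. Lars2 stood out at 193 and 158 FPKM in CNS and 25.6 and 32.7 FPKM in dLN (2.55), opposite to Yars2 (-2.16). Most genes of each list so far that passed the test were lower in CNS, as were those of the next lists. Genes of mitochondrial DNA transcription and RNA care had 15 lower and 2 higher of 20 (median -0.75), with the transcription factor Tfb2m at 2.50 and 2.76 FPKM in CNS and 24.1 and 24.2 FPKM in dLN (-2.79) and Slirp, the most abundant, not called (-0.11). Hsd17b10 was higher (0.43), a call made in 12 of 18 fits, and with each library left out 11 to 14 of the 20 were lower and 0 to 1 higher. Protein import and folding had 24 lower and 2 higher of 29 (median -1.02), or 26 and 0 with the length correction, with Timm10 at -3.10, Tomm7 at 0.52 (not called with the length correction) and the chaperonin Hspd1, the most abundant, at 90.0 and 92.3 FPKM in CNS and 435 and 440 FPKM in dLN.

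The respiratory chain and the cytosolic ribosome went the other way on this scale, without a correction for length. Among all genes tested, 37.8% were higher and 37.2% lower, or 32.2% and 42.5% with equal library sums. With the correction for length these shares were 36.7% and 38.1%. Of 79 nuclear genes of respiratory chain subunits, 45 were higher and 12 lower in CNS (median log2 ratio 0.41). Ndufv3 had the largest rise (2.28), Ndufa5 the largest fall (-1.16), and Atp5b, the most abundant, was lower (-0.92). Of 85 cytosolic ribosomal protein genes 54 were higher and 7 lower (median 0.34), or 35 and 15 with equal library sums. The balance turned with a correction for transcript length chosen after seeing the data, to 22 higher and 25 lower respiratory chain genes (median -0.01) and 15 higher and 28 lower cytosolic ribosomal protein genes (median -0.07). The members' median was -0.64 with it. Of 17 genes of the tricarboxylic acid cycle, 5 were higher and 4 lower (median 0.05, or -0.08 with the length correction). With equal library sums 2 were higher and 7 lower (median -0.14), or 11.8% and 41.2%, beside 32.2% and 42.5% of all genes. These genes ran from Fh1 (-1.21) to Idh3b (0.81), with Mdh2 the most abundant (-0.36, called in 14 of 18 fits). The 4 Sdh genes are in both this list and that of the respiratory chain.

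**Figure D3:**
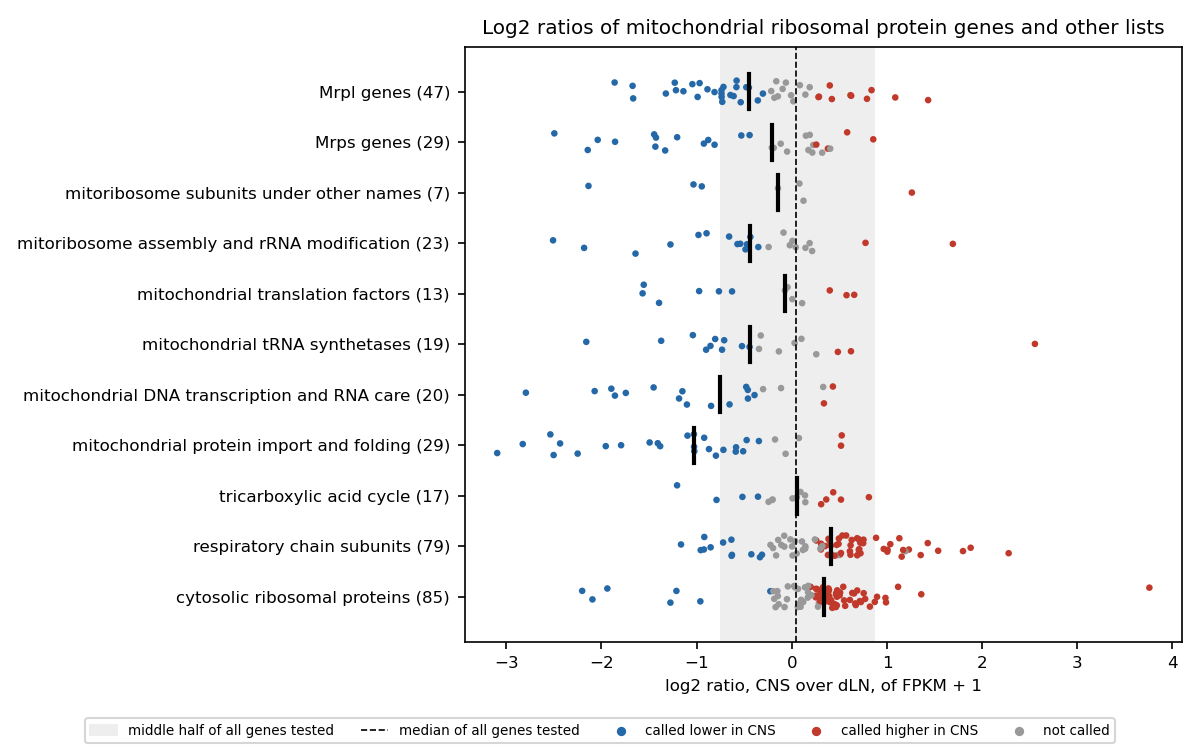
Log2 ratio (CNS over dLN) of each tested gene in the Mrpl and Mrps genes and 9 other lists, with the number of genes in brackets; blue points were called lower and red ones higher in CNS, black bars are list medians, the grey band is the interquartile range and the dashed line the median of all genes tested. Mrpl and Mrps genes lie left of the dashed line in the median, as do import genes, while most respiratory chain and cytosolic ribosomal protein genes lie right of it (their medians were -0.01 and -0.07 with the length correction).

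Log2 ratios varied with transcript length. Members' transcripts ran from 407 to 6712 bases with a median of 1048, and across the 76 genes the log2 ratio had a Spearman rho of -0.29 with length, beside -0.12 across all genes tested. Under 700 bases the 14 members had a median log2 ratio of 0.28, and the 427 other tested genes of that length one of 0.52. From 700 to 1000 bases the medians were -0.45 over 19 members and 0.48 over 543 other genes, from 1000 to 1500 bases -0.67 over 22 and 0.24 over 1200, and from 1500 bases on -0.58 over 21 and -0.04 over 8388. In each length class the members' median was thus below that of the other genes, the 2 shortest classes holding 14 and 19 members. The length correction took a loess curve on log2 transcript length out of each library. The curve was fitted to each gene's log2 value in that library minus its mean over the 4 libraries. With this correction 6 members were called higher and 49 lower, beside 36.7% and 38.1% of all genes. Across 18 fits, 34 of the 40 lower and 5 of the 14 higher members were called in the same direction each time, and the 5 were Mrpl14, Mrpl4, Mrps16, Mrpl48 and Mrpl18. Their log2 ratios were smaller with the length correction, at 0.92, 0.90, 0.33, 0.51 and 0.47, and Mrps16 was then near the threshold (limma adjusted p = 0.0408).

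**Figure D4:**
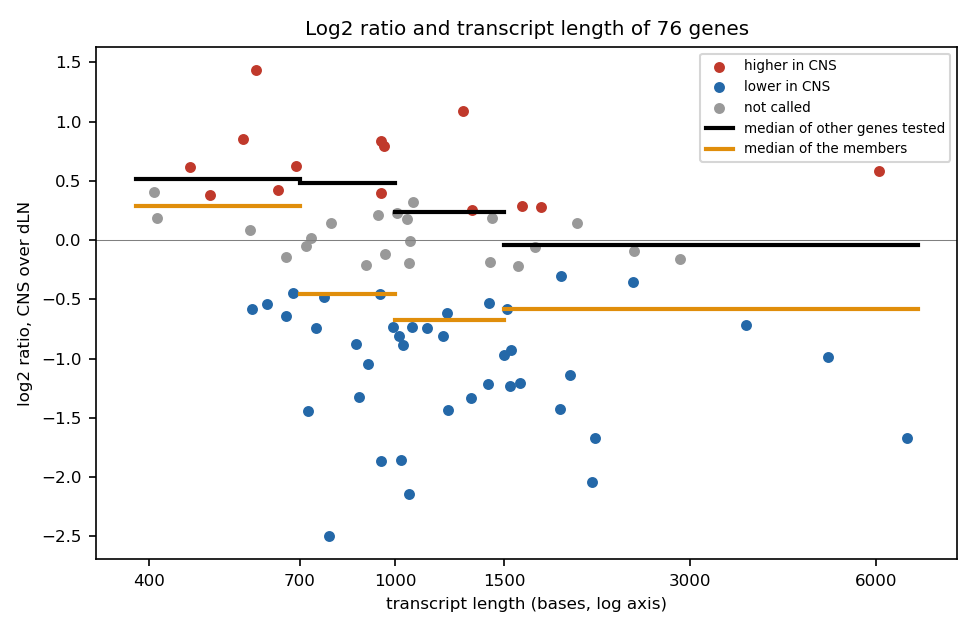
Log2 ratio (CNS over dLN) against transcript length (log axis) of the 76 genes, coloured by call; bars are medians of the members (orange) and of all other tested genes (black) in 4 length classes. Of the 14 members under 700 bases 6 were called higher and 4 lower, beside 49.4% and 16.9% of the other genes, and the orange bar is below the black one in each class.

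Regulators of mitochondrial gene sets were measured in the same libraries, where 37.2% of all genes tested were lower in CNS and 37.8% higher. These shares were 42.5% and 32.2% with equal sums, and 33.6% and 42.0% with the same upper quartile. Of 15 tested, 10 were lower and 2 higher in CNS (median log2 ratio -0.32), or 11 and 1 with equal sums (-0.50), 7 and 3 with the same upper quartile (-0.19), and 6 to 8 and 1 to 2 with each library left out. Myc was at 22.1 and 26.5 FPKM in CNS and at 363 and 417 FPKM in dLN (log2 ratio -3.95), and Mxd4, which binds the same partner Max and represses, at 28.7 and 36.0 FPKM in CNS and 2.23 and 1.09 FPKM in dLN (3.67). The coactivator Pprc1 was at 4.57 and 4.90 FPKM in CNS and at 50.1 and 55.1 FPKM in dLN (-3.22). The tissues did not overlap for any of these 3 genes. The GABP subunit Gabpb1 was lower (-1.86). Nrf1 (-0.32) and Yy1 (0.31) were near the threshold, with the call of Nrf1 made in 12 of 18 fits and that of Yy1 in 14, not with equal sums (0.11). Whether any of them acts on the members was not tested.

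Further lists describe the state of the cells in these libraries. Their counts stand beside 37.2% of all genes tested called lower in CNS and 37.8% higher, or 42.5% and 32.2% with equal library sums. Of 30 genes induced by T-cell stimulation, 18 were lower and 7 higher in CNS, and their summed level was 4078 and 5981 FPKM in CNS and 16205 and 17469 FPKM in dLN, where Il2 was the most abundant. Il2 itself was at 18.2 and 38.8 FPKM in CNS and at 5363 and 6176 FPKM in dLN, Il4 had the largest fall (log2 ratio -7.93), and Jun the largest rise (4.49). Of 20 genes of DNA replication and mitosis, 4 were higher and 1 lower, but 1 and 5 with equal library sums, 8 and 1 without dLN replicate 1 and 2 and 4 without dLN replicate 2, with Pcna at 205 and 202 FPKM in CNS and 214 and 217 FPKM in dLN. The T-cell markers Cd3e, at 328 and 389 FPKM in CNS and 104 and 89.2 FPKM in dLN, and Cd4, at 502 and 531 against 82.0 and 66.7 FPKM, were present in every library, and of 10 such markers 6 were higher and 3 lower, with Cd2 the most abundant over the 4 libraries. Their summed level was 3321 and 3334 FPKM in CNS and 1696 and 1634 FPKM in dLN.

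Markers of other cell types are given by level and not by call, since a marker that passed the filter through CNS alone had to be higher there. The tables hold 19 myeloid and microglial markers, and their levels summed to 66.9 and 463 FPKM in CNS and 8.93 and 6.54 FPKM in dLN. S100a8, the most abundant, was seen in 1 library, CNS replicate 2, at 101 FPKM, and 9 of the markers, among them Csf1r and the C1q genes, were listed at 0 in both dLN libraries. Without CNS replicate 2, the median log2 ratio of the mitochondrial ribosomal protein genes was -0.39, beside 0.02 over all genes tested. CNS replicate 1, kept in that fit, also held more of the myeloid markers than either dLN library, so the fit does not test their part. The 10 NK and CD8 T-cell markers summed to 13.0 and 50.3 FPKM in CNS and 3.92 and 3.93 FPKM in dLN, with Fcer1g the most abundant and Klra1 listed at 0 in all libraries. The 8 B-cell markers summed to 1.35 and 2.55 FPKM in CNS and to 0.599 and 0.401 FPKM in dLN, with Cd79b the most abundant and Pax5 listed at 0. The 14 markers of glia and neurons summed to 53.6 and 61.8 FPKM in CNS and 56.3 and 58.4 FPKM in dLN, most of it Mbp, and 8 of them, among them Mog and Gfap, were listed at 0 in dLN. Xist, transcribed from the X chromosome in females, had 26.6 and 22.3 FPKM in dLN with 0.0026 FPKM as its higher CNS value, and Y-linked Ddx3y had 12.7 and 11.2 FPKM in CNS with both dLN values at 0. Tissue, table and these sex-linked transcripts cannot be told apart, and the part that stimulation, other cells or sex have in the members' ratios was not tested.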

How the data were processed

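RNA of 2 CNS and 2 dLN libraries was analysed from FPKM values that the authors had computed and deposited for 33819 RefSeq transcripts (build mm10), 1 table for each tissue. The aligner and the FPKM program are not given in the sources used here, nor is strand use. The CNS header names both libraries in 1 cell, and its value columns were taken in that order. FPKM was summed by gene symbol, without the 565 transcripts that lack one. A mean of at least 1 FPKM in either tissue was required (10634 genes). limma 3.58.1 (lmFit, eBayes with trend, tissue as the term) was run in R 4.3.3 on log2(FPKM + 1), with Benjamini-Hochberg adjustment at 0.05. For the depth estimate, 89.9% to 92.9% of low FPKM values were whole multiples of 1 fragment (within 0.05 fragment, where chance gives 10%). Python 3.11.15 with pandas 2.3.3, numpy 2.4.6, matplotlib 3.10.9 and scipy 1.17.1 served for the rest. Promoters came from RefSeq (GRCm38.p6), and strand and exons from GENCODE M21.

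Named members have the 8 highest or 8 lowest log2 ratios or the 4 highest or 4 lowest mean levels, or are the Mrps18 paralogs, Mrpl12, Mrps30 and Mrps36. From most other lists the largest called rise and fall and the most abundant gene were named, and from the renamed subunits and the regulators any gene. Further genes were named after their values were seen. Cytosolic ribosomal protein genes were symbols with Rpl or Rps and a digit, Rplp or Rpsa, without Rps6k kinases and pseudogene symbols. With these included, 104 symbols had a median log2 ratio of 0.35. Members and lists were chosen with earlier results of these data known. Alternatives covered the pseudocount, scaling, filter, transcripts, spread model, a replicate block, a minimum change and leaving out each library.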

Additional observations from a re-analysis of the deposited data

How the results depend on the processing

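Of all genes, 7968 were called, and 4168 when a log2 ratio of 1 or more in size was also required. That requirement left 2 members higher and 17 lower, beside 21.0% and 18.2% of all genes. The 14 members called higher became 8 with the same sum per library, 22 with the same upper quartile and 6 with the length correction, and the median of -0.40 became -0.58, -0.27 and -0.64. The share of all genes called higher went from 37.8% to 32.2%, 42.0% and 36.7%, and their median from 0.05 to -0.13, 0.16 and -0.01. The members' median minus that of all genes was -0.45, and in these settings -0.46, -0.43 and -0.63. Taking each gene's highest transcript instead of the sum gave a median of -0.33. Leaving out each library in turn gave 6596 to 7363 genes called, 8 to 13 members higher, 34 to 39 lower and a median of -0.45 to -0.33, with the lone library assumed to vary like the pair in the other tissue. Replicate numbers were not taken to pair the libraries (correlation of replicate differences 0.0933 across genes, which are not independent). With the replicate block 7828 genes were called, 12 members were higher and 40 lower, and the median was -0.40. Of 408 comparisons for 24 named members, 391 kept direction and side of the threshold, 8 lost the call, 4 gained one and 5 turned. Mrpl52 went to -0.42 with the length correction and -0.0091 with the same sum, Mrps18c to -0.18 with the length correction, and Mrps36 to 0.082 with the same upper quartile. Without each library in turn Mrps36 ranged from -0.29 to 0.19. The cause was not tested. The length correction and values per full transcript length were chosen after seeing the data. Depth limits the lowest member value, 94 fragments, to a counting error of 10.3%.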
